A study of Mus musculus with 22 samples.

Results

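The genes described here are the potassium channel genes of the mouse, pore-forming and auxiliary subunits alike, in astrocyte ribosome-bound mRNA of the optic nerve. They were taken as every protein coding gene whose symbol begins with Kcn, without Kcnj10, Kcnj8 and Kcnk2, which left 85 of the 29367 genes in the count table, in 16 subfamilies. The libraries came from adult C57Bl/6 mice carrying the Rpl22 ribotag allele and a GFAP-Cre transgene, labelled WT, in which a mouse GFAP promoter drives Cre and Cre places a hemagglutinin tag on a ribosomal protein. Microbeads had been injected into the eye of every mouse to raise intraocular pressure (IOP), and no library of uninjected mice was analysed here. Tagged ribosomes were immunoprecipitated from the optic nerve head (ONH, the unmyelinated part) and from the adjoining optic nerve proper (ONP, the myelinated part), 7 and 30 days after injection. There were 4 libraries per region at 7 days and 7 per region at 30 days. Every library is a pool of 4 animals, with equal numbers of each sex. The same mice gave the ONH and ONP tissue.

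Potassium channels let potassium ions leave or enter a cell along their gradient. Voltage-gated (Kv) channels open on depolarization, inward rectifiers (Kir) and two-pore domain (K2P) channels hold the resting potential, and calcium-activated channels (BK, SK) link calcium signals to potassium flow. In white matter, astrocytes take up the potassium that firing axons release, largely through inward rectifiers, while Kv1 channels are best known from the axon beneath the myelin sheath next to the node of Ranvier.

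Libraries held 16292489 to 33307092 counts, and levels are given as CPM, a gene's count over the library's TMM-adjusted total, scaled to a total of 1000000 (TMM is edgeR's scaling for library composition). Without that adjustment, 3 counts were worth 0.0901 to 0.184 CPM. The defining astrocyte marker Gfap was between 8775 and 23068 CPM in all 22 libraries, but markers of other cells were also present. The summed level of 8 oligodendrocyte markers (Mbp, Mog and others) was 18313 to 35188 CPM in the ONH at 7 days, 13269 to 40578 CPM in the ONH at 30 days, 80312 to 105230 CPM in the ONP at 7 days and 25098 to 82177 CPM in the ONP at 30 days. The 9 astrocyte markers summed to 14507 to 33473 CPM over all libraries. In tissue of this kind, fewer cells of a type and less RNA per cell cannot be told apart.

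Of the 85 genes, 24 had over 3 counts in all 22 libraries, 57 in some libraries, and 4 (Kcnmb3, Kcng2, Kcna10 and Kcna7) in none. Per kilobase of exon, the mean over the 4 groups was highest for the inward rectifier Kcnj13 (43.0 CPM per kb), followed by the Kv1 pore gene Kcna1 (26 CPM per kb), the K2P channel Kcnk13 (22.9 CPM per kb) and Kcnip3 (12.9 CPM per kb), a calcium-binding protein that attaches to Kv4 channels and also acts in the nucleus. Then came Kcnj12 (12.1 CPM per kb), Kcnk1 (12 CPM per kb), Kcne1l (11.8 CPM per kb) and Kcna6 (11.4 CPM per kb). These 4 and Kcnip3 lay too close to be ordered. Without the ONH library of 7 days numbered 6, the Kcnj13 mean over groups was 28.1 CPM per kb. The order differed by region. Kcnj13 ranked first in the ONH at both times (120 CPM per kb at 7 days, or 60.5 without that library, and 27.8 CPM per kb at 30 days), whereas Kcna1 ranked first in the ONP at both times (48.8 and 29.6 CPM per kb), where Kcnk13 came next (37.5 and 29.5 CPM per kb). The Kcnj13 level has a limit, since all of the gene (chr1:87386363-87394729, minus strand, build GRCm38) lies within Gigyf2 on the other strand and 623 of its 1270 exon bases, 49.1%, overlap exons of that gene, which averaged 33.9 CPM. The library kit does not mark strand, so reads from the shared bases cannot be assigned to either gene.

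**Figure D1:**
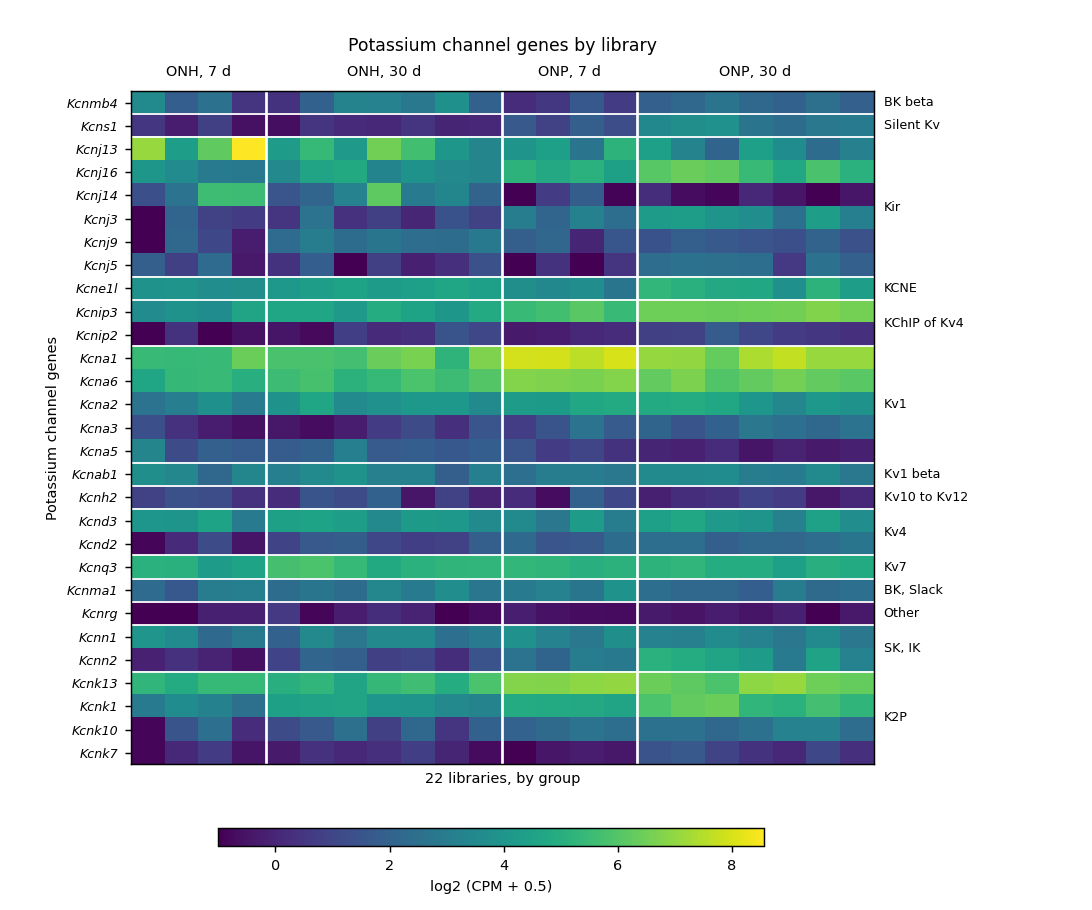
Level of 29 potassium channel genes described in the text, as log2 of CPM plus 0.5 by colour, in 22 libraries (columns, by group) and by subfamily (rows). Few genes carried most of the signal: Kcna1, Kcna6, Kcnk13 and Kcnip3 were brighter in the ONP, and Kcnj13 and Kcnj14 were brightest in single ONH libraries.

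In the comparison of regions, ONH over ONP, potassium channel genes were mostly lower in the ONH. At 30 days, 46 of them passed the filter on low counts, which keeps genes with enough counts in at least the smaller group, and 21 were called at an adjusted p-value under 0.05 by edgeR's quasi-likelihood test, 45.7% of those tested against 41.8% of all genes tested. Of the 21, 16 were lower in the ONH (all genes lower: 20%) and 5 were higher (all genes higher: 21.8%). The median log2 fold change of the 46 genes was -0.61, against -0.01 for all genes. At 7 days, 44 were tested and 10 were called, 22.7% against 13.2% of all genes, 8 lower in the ONH (all genes lower: 6.81%) and 2 higher (all genes higher: 6.34%), with a median of -0.33 against 0.07 for all genes. That median was 0.16 with DESeq2 and 0.18 without a filter on low counts, each of which tested more low genes. DESeq2 called 17 genes at 7 days (19% of all genes it tested). Groups did not overlap for 8 of the 46 genes at 30 days (16.4% of all genes) and for 11 of the 44 at 7 days (21.7% of all genes). Over the 43 genes tested at both times, which use different libraries, 33 had the same sign, and the 9 called at both times had the same sign. The share of all genes with the same sign was not taken. Between regions, markers of oligodendrocytes and of their precursors moved with the genes lower in the ONH, among them Kcnn2, Kcns1, Kcnj3, Kcnd2 and Kcnk10. The oligodendrocyte markers called lower were 8 of 8 at 7 days and 6 of 8 at 30 days. Of the 5 precursor markers 3 were lower at 7 days and 4 at 30 days, with sums of 333 to 513 CPM and 324 to 700 CPM in the ONH and 1479 to 1845 CPM and 825 to 1389 CPM in the ONP. Between the times in the ONP, by contrast, Kcnn2 and Kcns1 rose. There 7 of the 8 oligodendrocyte markers and 1 of the 5 precursor markers were called lower at 30 days. The part of oligodendrocytes and their precursors in the differences between regions was not tested. Since each library is a pool, these p-values measure the spread between pools.

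**Figure D2:**
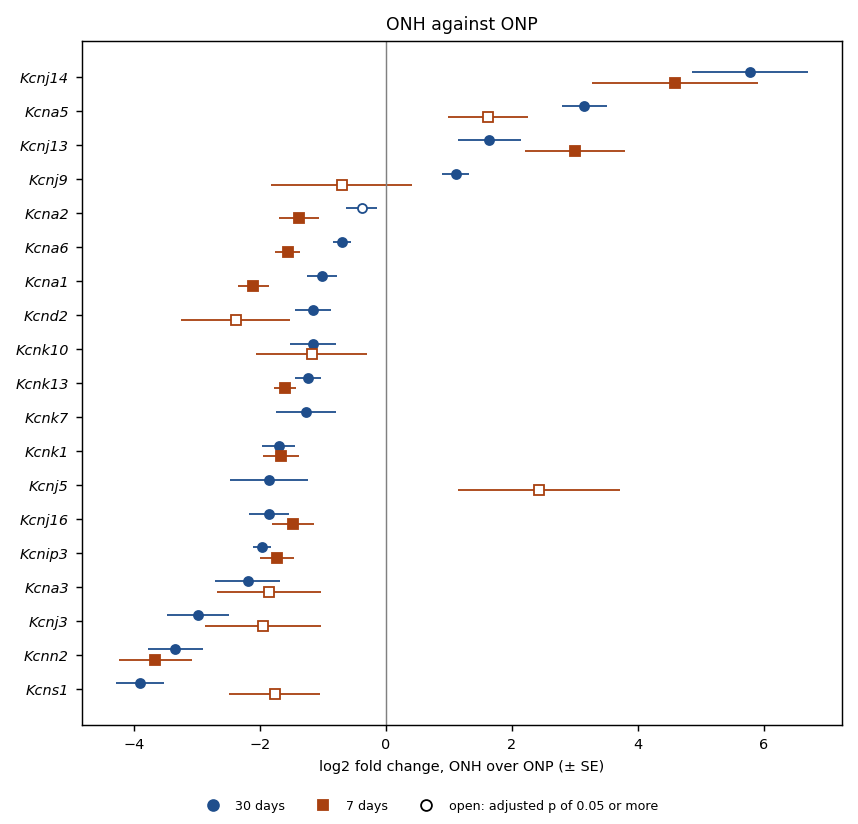
Log2 fold change, ONH over ONP, with its standard error, for 19 of the 22 potassium channel genes called at 30 days (circles) or 7 days (squares); open symbols had an adjusted p of 0.05 or more, and a missing square was not tested at 7 days. Most genes lie left of 0 at both times, with Kcns1 farthest left at -3.90 and Kcnj14 farthest right at 5.77, both at 30 days.

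In the comparison of times, 30 over 7 days, the ONP moved and the ONH showed no call. In the ONP, 14 of 50 genes tested were called, 28.0% against 17% of all genes. They were 9 higher at 30 days (all genes higher: 7.82%) and 5 lower (all genes lower: 9.21%), with a median log2 fold change of 0.41 over the 50 genes against -0.01 for all genes. With scaling by library size only, under which the median of all genes moved to 0.11, 12 rose and 3 fell. The groups did not overlap for 10 of the 50 (12% of all genes). Without the ONP library of 7 days numbered 2, or without that numbered 6, 7 genes were called. In the ONH, 0 of 52 genes tested were called by edgeR, as were 0% of all genes, and 11 of the 52, 21.2%, had an unadjusted p under 0.05, against 13.9% of all genes. DESeq2 called 2 of them (2.49% of all genes it tested) and a single fit of all 4 groups called 1. Over the 46 genes tested in both regions, 32 had the same sign. These 2 comparisons use different libraries of the same mice, so they are not independent. The share of all genes with the same sign was not taken. In the test of whether the 30 vs 7 day change differed between regions, 0 of 61 genes passed by edgeR (all genes: 0.543%), with 11 of them, 18%, at an unadjusted p under 0.05 (all genes: 12.6%) and 4 called by DESeq2 (2.28% of all genes it tested). A change called in the ONP alone was therefore not shown to differ from that of the ONH.

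**Figure D3:**
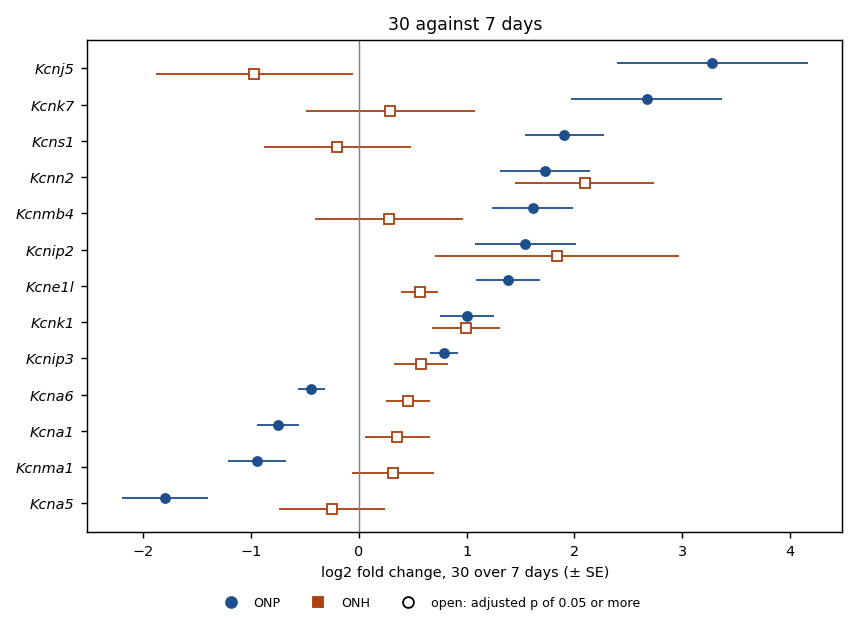
Log2 fold change, 30 over 7 days, with its standard error, for 13 of the 14 potassium channel genes called in the ONP (filled circles) and the same genes in the ONH (open squares, none called). In the ONP the values run from 3.28 for Kcnj5 to -1.80 for Kcna5.

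Promoter sequences are shown for 4 genes on which these comparisons turn: Kcna5 and Kcna6, 2 genes of one Kv1 cluster on chromosome 6 with opposite regional differences, and Kcns1 and Kcnk1, both higher in the ONP at 30 days and both rising there. Each is the 250 bases before the RefSeq start of the gene on its own strand (GRCm38.p6), 5′ to 3′, with every CG dinucleotide in capitals. Of the 85 genes, 61 had such a window in the table used.
Kcna5 (chr6:126535556-126535805, minus strand): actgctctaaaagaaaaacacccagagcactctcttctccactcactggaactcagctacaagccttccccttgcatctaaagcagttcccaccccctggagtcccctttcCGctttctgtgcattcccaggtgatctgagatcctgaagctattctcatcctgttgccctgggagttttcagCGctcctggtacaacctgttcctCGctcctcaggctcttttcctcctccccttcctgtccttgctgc
Kcna6 (chr6:126740675-126740924, minus strand): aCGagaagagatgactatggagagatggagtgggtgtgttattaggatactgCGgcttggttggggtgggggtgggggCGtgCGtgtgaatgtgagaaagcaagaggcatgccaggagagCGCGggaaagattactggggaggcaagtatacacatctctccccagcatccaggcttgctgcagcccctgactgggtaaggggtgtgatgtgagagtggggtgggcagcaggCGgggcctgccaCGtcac
Kcns1 (chr2:164171114-164171363, minus strand): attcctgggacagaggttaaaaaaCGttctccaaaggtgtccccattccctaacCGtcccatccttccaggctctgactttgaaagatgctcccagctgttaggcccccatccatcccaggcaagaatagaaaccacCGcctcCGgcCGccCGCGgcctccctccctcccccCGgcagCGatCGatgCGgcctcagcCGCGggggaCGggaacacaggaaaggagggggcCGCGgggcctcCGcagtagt
Kcnk1 (chr8:125994852-125995101, plus strand): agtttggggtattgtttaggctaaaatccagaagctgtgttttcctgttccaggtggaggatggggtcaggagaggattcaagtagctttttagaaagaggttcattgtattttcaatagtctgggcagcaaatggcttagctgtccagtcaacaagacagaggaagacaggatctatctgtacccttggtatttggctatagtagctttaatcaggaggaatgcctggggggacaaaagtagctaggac
The 4 windows share no simple make-up. That of Kcns1 held 17 CG dinucleotides at 63.2% G and C, that of Kcna6 8 at 58.8%, that of Kcna5 3 at 53.2%, and that of Kcnk1 0 at 44.4%, against medians of 6 and 52.4% over 32851 windows of 27025 genes. On both strands, GGGCGG was found once, in Kcns1 (32.7% of all windows hold it), while TATAAA (12.4% of all windows) and CCAAT (33.8% of all windows) were found in none of the 4. These are counts of letters in a window and say nothing of the factors that bind such letters.

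Of the 5 Kv1 pore genes tested at 30 days, 3 were called lower in the ONH by edgeR and 1 higher. Kcna1 codes for a low-threshold delayed rectifier of the axonal membrane. It was at 43.6, 41.8, 44.3 and 84.3 CPM in the ONH libraries of 7 days (numbered 1, 3, 5 and 6, the order used throughout) and at 239, 244, 196 and 254 CPM in the ONP libraries of 7 days (numbered 1, 2, 5 and 6, likewise). At 30 days it ranged from 37.1 to 106 CPM in the ONH (median 56.4) and from 79.7 to 207 CPM in the ONP (median 136). The regions were apart at 7 days and overlapped at 30 days. By edgeR, log2 fold changes of ONH over ONP were -2.11 ± 0.24 (SE, adjusted p = 0.000456) at 7 days and -1.02 ± 0.24 (adjusted p = 0.00301) at 30 days. In the ONP, Kcna1 fell by 0.75 ± 0.19 on the log2 scale between 7 and 30 days (edgeR adjusted p = 0.0214), a call lost without the ONP library of 7 days numbered 1, 2 or 6 (adjusted p = 0.0519, 0.0552 and 0.0696) and in a single fit of all groups (adjusted p = 0.0876).

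Kcna6, another Kv1 pore subunit, followed Kcna1. It was at 24.2, 40.7, 44.6 and 32.1 CPM in the ONH at 7 days and at 111, 104, 98.3 and 110 CPM in the ONP at 7 days. At 30 days the ONH ranged from 34.7 to 63.5 CPM (median 46.6) and the ONP from 62.5 to 102 CPM (median 76.2). No ONH library of 7 days reached any ONP library, while at 30 days the ranges met at their edges. Log2 fold changes of ONH over ONP were -1.56 ± 0.20 (edgeR adjusted p = 0.000877) at 7 days and -0.70 ± 0.14 (adjusted p = 0.00119) at 30 days. In the ONP it fell by 0.44 ± 0.12 on the log2 scale (edgeR adjusted p = 0.0313). That call was lost without any one of 6 libraries, those of the ONP numbered 1, 4 and 6 at 30 days and 1, 2 and 6 at 7 days (adjusted p from 0.0517 to 0.0959), and under library size scaling, no filter and the single fit (adjusted p from 0.0636 to 0.137). The change in the ONP less that in the ONH was -0.89 (edgeR adjusted p = 0.0863, DESeq2 adjusted p = 0.0371). Of its exon bases 39.6% are shared with the antisense gene Gm26673, which averaged 0.492 CPM.

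Kcna2, which forms mixed channels with Kcna1 in axons, was at 5.76, 8.04, 13.4 and 6.95 CPM in the ONH and at 18.5, 18.1, 25.3 and 28.0 CPM in the ONP at 7 days, with no overlap. Its log2 fold change of ONH over ONP was -1.38 ± 0.31 (edgeR adjusted p = 0.0158), and the call was lost without the ONP library numbered 5 or 6 (adjusted p = 0.0531 and 0.0599). At 30 days the ONH (11 to 24.8 CPM, median 14.2) and the ONP (10.3 to 29.9 CPM, median 16.7) lay over each other. Kcna3, a Kv1 channel also found in immune cells, was lower in the ONH at 30 days, at 0.129 to 2.37 CPM (median 0.769) against 2.31 to 6.41 CPM (median 4.09) in the ONP, with a log2 fold change of -2.19 ± 0.52 (edgeR adjusted p = 0.00305).

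The oligodendrocyte markers moved with these genes, and 7 of the 8 also fell in the ONP between 7 and 30 days. Per 1000 CPM of summed oligodendrocyte markers, Kcna1 was at a median of 2.14 CPM in the ONH at 7 days, 3.02 CPM in the ONH at 30 days, 2.61 CPM in the ONP at 7 days and 2.61 CPM in the ONP at 30 days, with ranges of 1.93 to 2.40, 2.02 to 3.88, 2.19 to 2.98 and 2.41 to 3.51 that overlapped between regions at each time. For Kcna6 the same medians were 1.53, 2.51, 1.15 and 1.47 CPM. The part of oligodendrocyte RNA in the fall of Kv1 genes was not tested.

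Kcna5 ran the other way. This Kv1 channel, known from heart and vessel muscle, lies on chromosome 6 (126532551-126535412, minus strand, GRCm38) in a row with Kcna1 (126640397-126646384) and Kcna6 (126708329-126740674) on the same strand, 104985 bases from Kcna1. It was at 9.64, 1.79, 3.36 and 2.92 CPM in the ONH and 2.39, 1.15, 1.48 and 0.824 CPM in the ONP at 7 days. At 30 days it was at 2.62 to 8.28 CPM in the ONH (median 3.13) and 0.231 to 0.670 CPM in the ONP (median 0.429). At 30 days the regions were apart, with a log2 fold change of ONH over ONP of 3.15 ± 0.35 (edgeR adjusted p = 8.39e-06). In the ONP the times were apart as well, and Kcna5 fell by 1.80 ± 0.40 on the log2 scale (adjusted p = 0.011). Both calls held in every other setting over all libraries and without any one library. Markers of vessel cells moved in part with it. In the ONP 3 of 6 endothelial and 3 of 5 mural markers tested were lower at 30 days. Between regions at 30 days 1 of 6 endothelial markers was higher in the ONH, and 2 of 5 mural markers were higher and 1 lower. The part of these cells was not tested.

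**Figure D4:**
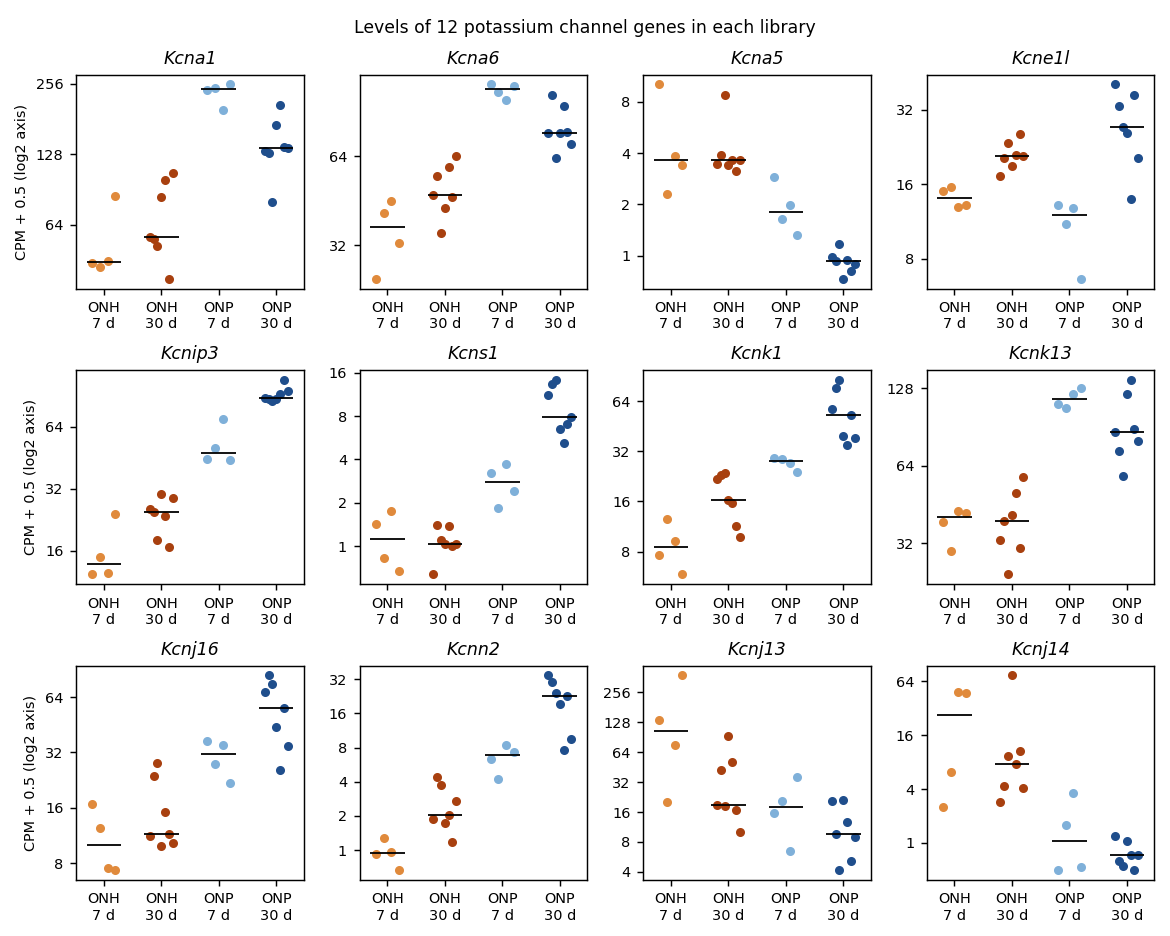
Level of 12 potassium channel genes in each library (points, CPM plus 0.5 on a log2 axis) with the group median (bar). Kcna1, Kcna6, Kcnk13, Kcnip3, Kcnk1, Kcnj16 and Kcnn2 are higher in the ONP at both times. Kcnip3, Kcns1, Kcnk1, Kcne1l, Kcnj16 and Kcnn2 have their highest medians in the ONP at 30 days. A few ONH libraries stand far above the rest for Kcnj13 and Kcnj14.

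Kcnip3, which binds calcium and tunes Kv4 channels, was higher in the ONP at both times and rose there. It was at 11.8, 14.5, 12 and 23.6 CPM in the ONH and at 44.3, 50.1, 69.2 and 43.7 CPM in the ONP at 7 days. The 30 day libraries held 16.2 to 29.6 CPM in the ONH (median 24.3) and 84.5 to 108 CPM in the ONP (median 88.0). Every ONP library lay above every ONH library, and within the ONP every library of 30 days lay above every one of 7 days. Log2 fold changes of ONH over ONP were -1.97 ± 0.14 at 30 days (edgeR adjusted p = 9.75e-08) and -1.73 ± 0.27 at 7 days (adjusted p = 0.00253), and the rise in the ONP was 0.79 ± 0.13 (adjusted p = 0.00251). All 3 calls held in each other setting and without any one library. Kcnip3 rose in the ONP while oligodendrocyte markers fell. Per 1000 CPM of astrocyte markers its median was 0.694 CPM in the ONH at 7 days, 1.14 CPM in the ONH at 30 days, 2.81 CPM in the ONP at 7 days and 3.67 CPM in the ONP at 30 days. On that scale the regions stayed apart at both times (highest ONH values 1.55 and 1.77, lowest ONP values 2.04 and 2.53), and the times in the ONP overlapped. Per 1000 CPM of oligodendrocyte markers the regions overlapped at both times, at 0.524 to 0.792 CPM in the ONH and 0.416 to 0.773 CPM in the ONP at 7 days, and 0.703 to 1.53 CPM and 1.12 to 3.37 CPM at 30 days. The part of oligodendrocyte RNA was not tested.

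Its relative Kcnip2 rose in the ONP from 0.306, 0.318, 0.533 and 0.675 CPM at 7 days to 0.719 to 2.90 CPM at 30 days (median 1.27), by 1.54 ± 0.47 on the log2 scale (edgeR adjusted p = 0.0397). This weak call was lost without any one of 8 of the 11 libraries (those numbered 1 to 4 at 30 days and each of the 4 at 7 days, adjusted p from 0.0564 to 0.0968) and in 3 other settings (from 0.068 to 0.293). Of the Kv4 pore genes, which carry the fast A-type current that KChIP proteins tune, only Kcnd2 was called, lower in the ONH at 30 days, at 1.2 to 3.24 CPM (median 1.56) against 3.18 to 6.15 CPM (median 4.92). Its log2 fold change was -1.15 ± 0.29 (edgeR adjusted p = 0.00443). Kcnd3 was the highest Kv4 gene per kilobase and passed in no comparison, at means of 15.2, 17.3, 10.9 and 17.2 CPM in the ONH at 7 and 30 days and the ONP at 7 and 30 days.

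Kcns1 showed the widest regional difference at 30 days among genes called lower in the ONH. It codes for an electrically silent subunit that makes no channel alone and modifies Kv2 channels. It was at 0.916, 0.329, 1.25 and 0.168 CPM in the ONH and at 2.70, 1.336, 3.24 and 1.91 CPM in the ONP at 7 days. By 30 days the level was 0.135 to 0.906 CPM in the ONH (median 0.539) and 4.67 to 13.8 CPM in the ONP (median 7.35). Each ONP library exceeded each ONH library at the same time, and in the ONP the times did not overlap. The log2 fold change of ONH over ONP at 30 days was -3.90 ± 0.38 (edgeR adjusted p = 2.16e-06), or 15.0-fold lower, and the rise in the ONP was 1.91 ± 0.36 (adjusted p = 0.00547), or 3.75-fold. Both calls held in each other setting over all libraries and without any one library. At 7 days the log2 fold change between regions was -1.77 (edgeR adjusted p = 0.137), not called. With its level taken per 1000 CPM of oligodendrocyte markers, the regions overlapped at 7 days and were apart at 30 days, at 0.00825 to 0.0503 CPM in the ONH and 0.0569 to 0.549 CPM in the ONP. The ONP change exceeded the ONH change by 2.10 (edgeR adjusted p = 0.169, DESeq2 adjusted p = 0.0423).

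Of the 3 Kv7 pore genes tested between regions at 30 days, 2 were called lower in the ONH by edgeR and are not reported here by name. Kcnq3, which with other Kv7 genes carries the M-current that restrains firing, was the highest. Its means were 27.3 and 41.7 CPM in the ONH and 36.2 and 30.9 CPM in the ONP at 7 and 30 days. By the edgeR test used throughout it passed in no comparison (adjusted p = 0.0505 between regions at 30 days). That difference was called with DESeq2 (adjusted p = 0.0477) and in other edgeR settings: RLE size factors (0.0483), a single fit of all groups (0.0478) and the replicate number as a block (0.0135). Of the Kv3 genes and the Kv10 to Kv12 genes 0 were called in any comparison by edgeR with its filter on low counts. The highest Kv10 to Kv12 gene per kilobase, Kcnh2, had group means of at most 1.53 CPM.

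Inward rectifiers split by region. Kcnj16, which in glia assembles with the main astrocyte inward rectifier, was at 16.3, 11.9, 7.07 and 6.84 CPM in the ONH and 36.3, 27.0, 34.4 and 21.4 CPM in the ONP at 7 days, with no overlap. The 30 day libraries held 9.39 to 27.4 CPM in the ONH (median 10.9) and 25.3 to 83.5 CPM in the ONP (median 55.4), and the ranges met at their edges. Log2 fold changes of ONH over ONP were -1.48 ± 0.33 (edgeR adjusted p = 0.0143) at 7 days and -1.86 ± 0.31 (adjusted p = 0.000274) at 30 days. Per 1000 CPM of astrocyte markers it was at a median of 0.468 and 0.614 CPM in the ONH and 1.54 and 1.93 CPM in the ONP, at 7 and 30 days, and the regions did not overlap on that scale (highest ONH values 0.771 and 1.05, lowest ONP values 1.41 and 1.67). Against oligodendrocyte markers, again per 1000 CPM, the regions overlapped, at 0.194 to 0.744 CPM in the ONH and 0.203 to 0.453 CPM in the ONP at 7 days, and 0.242 to 2.07 CPM and 0.308 to 2.999 CPM at 30 days. The part of oligodendrocyte RNA was not tested.

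The G protein-gated inward rectifiers, Kcnj3, Kcnj5 and Kcnj9, open when G protein-coupled receptors release their beta and gamma subunits. They were low. At 30 days Kcnj3 and Kcnj5 were lower in the ONH, while Kcnj9 was higher. Kcnj3 was lower in the ONH at 30 days, at 0.521 to 5.70 CPM (median 1.23) against 5.21 to 19.6 CPM (median 15.2) in the ONP, with -2.98 ± 0.49 on the log2 scale (edgeR adjusted p = 0.000227) and ranges that overlapped. At 7 days it was at 0, 3.83, 1.37 and 1.12 CPM in the ONH and 7.78, 3.82, 8.70 and 4.98 CPM in the ONP. Its rise in the ONP between the times was not called by the edgeR test used throughout. DESeq2 called it (log2 fold change 1.17, adjusted p = 0.00983), as did edgeR with RLE size factors (adjusted p = 0.0497) and with library size scaling (0.0389). Kcnj9 was higher in the ONH at 30 days, at 4.58 to 7.77 CPM (median 4.89) against 2.00 to 3.67 CPM (median 2.40), with no overlap and 1.11 ± 0.22 (adjusted p = 0.000884; in a single fit of all groups 0.123). At 7 days its libraries were spread from 0 to 4.10 CPM in the ONH and from 0.492 to 4.01 CPM in the ONP.

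Kcnj5 rose in the ONP. It was at 0, 0.827, 0 and 0.899 CPM in the ONP at 7 days and at 1.02 to 5.49 CPM at 30 days (median 4.98), with no overlap and a log2 fold change of 3.28 ± 0.89 (edgeR adjusted p = 0.0257; in a single fit of all groups 0.0605). In the ONH it was at 3.23, 1.26, 4.56 and 0.280 CPM at 7 days and at 0 to 3.15 CPM at 30 days (median 0.809). At 30 days the ONH was lower by edgeR (-1.86 ± 0.62, adjusted p = 0.0255; in a single fit 0.0724), with overlap. The ONP change exceeded the ONH change by 4.26 on the log2 scale (edgeR adjusted p = 0.160, DESeq2 adjusted p = 0.0305).

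Kcnj13, an inward rectifier best known from retinal pigment epithelium and choroid plexus, was higher in the ONH, with wide spread. It was at 136, 19.9, 75.0 and 379 CPM in the ONH and 15.0, 20.4, 5.99 and 35.7 CPM in the ONP at 7 days. By 30 days the level was 9.66 to 91.7 CPM in the ONH (median 18.5) and 3.68 to 20.7 CPM in the ONP (median 9.13). The regions overlapped at both times. Log2 fold changes of ONH over ONP were 3.0 ± 0.79 (edgeR adjusted p = 0.0318) at 7 days and 1.64 ± 0.50 (adjusted p = 0.0157) at 30 days. The call at 7 days was lost without the ONH library numbered 1 or 6 or the ONP library numbered 1, 2 or 5 (adjusted p from 0.0549 to 0.0904), and the log2 fold change was 2.00 without the ONH library numbered 6. Of 7 pigment cell and pigment epithelium markers, 6 were higher in the ONH at each time. Their sum was 363 to 1284 CPM in the ONH at 7 days, 265 to 824 CPM in the ONH at 30 days, and at most 144 CPM in the ONP. The ONH library numbered 6 at 7 days was the highest in both Kcnj13 and this sum. It was also the highest in summed photoreceptor (5714 CPM), mural (977 CPM) and fibroblast and meninges (1537 CPM) markers. Rpe65 was at 8.25 to 180 CPM in the ONH and 1.23 to 4.31 CPM in the ONP at 7 days. At 30 days it was at 2.96 to 78.5 CPM in the ONH and 0 to 1.88 CPM in the ONP. The part of pigment epithelium or of these other cells in the Kcnj13 level was not tested.

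Kcnj14, a strongly rectifying Kir2 pore gene, was at 2.05, 5.74, 47.8 and 46.9 CPM in the ONH and 0, 1.08, 3.08 and 0.0375 CPM in the ONP at 7 days. At 30 days it was at 2.38 to 73.7 CPM in the ONH (median 7.17) and 0 to 0.700 CPM in the ONP (median 0.240), with no overlap. Log2 fold changes of ONH over ONP were 5.77 ± 0.92 (edgeR adjusted p = 0.00017) at 30 days and 4.59 ± 1.32 (adjusted p = 0.0446) at 7 days. The latter call was lost with limma-voom (adjusted p = 0.102) and without the ONH library numbered 5 or 6 or the ONP library numbered 1, 2 or 6 (adjusted p from 0.0695 to 0.118). Photoreceptor markers moved with it. Of 7 such markers, 7 were higher in the ONH at 30 days and 6 at 7 days, and their sum reached 1465 and 5714 CPM in the ONH libraries numbered 5 and 6 at 7 days and 2315 CPM in that numbered 4 at 30 days, the same 3 libraries in which Kcnj14 exceeded 40 CPM. The part of photoreceptor RNA was not tested. Kcnj12, also a Kir2 gene, was the highest inward rectifier per kilobase in the ONH after Kcnj13. Its means were 47.1 and 36.6 CPM in the ONH and 22.5 and 27.1 CPM in the ONP at 7 and 30 days. By the edgeR test used throughout it passed in no comparison (adjusted p = 0.0828 between regions at 7 days). It was called at 7 days with DESeq2 (adjusted p = 0.0374) and in edgeR's single fit of all groups (0.0372).

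Each K2P gene that passed the filter was lower in the ONH, 7 of 7 at 30 days and 6 of 6 at 7 days. Of these, 4 were called at 30 days (all genes lower: 20%) and 2 at 7 days (all genes lower: 6.81%). Genes too low to test did not all follow. Kcnk12 and Kcnk4 had higher means in the ONH at both times, and Kcnk9 at 7 days only. Kcnk7, not tested at 7 days, then had means of 0.308 CPM per kb in the ONH and 0.135 CPM per kb in the ONP. Kcnk13, known as the main background potassium channel of microglia, was at 38.4, 29.5, 42.1 and 41.6 CPM in the ONH and 110, 107, 121 and 128 CPM in the ONP at 7 days. The 30 day libraries held 23.7 to 57.4 CPM in the ONH (median 38.7) and 58.1 to 138 CPM in the ONP (median 85.9). The regions were apart at both times, with log2 fold changes of ONH over ONP of -1.60 ± 0.17 (edgeR adjusted p = 0.000291) at 7 days and -1.24 ± 0.21 (adjusted p = 0.000304) at 30 days, and both calls held in each other setting and without any one library. Of 8 microglia and macrophage markers, 0 were called between regions at 7 days by edgeR and 1, lower in the ONH, at 30 days. Their median log2 fold change of ONH over ONP was -0.83 at 7 days and -0.81 at 30 days. Their sum was 160 to 1643 CPM in the ONH and 1297 to 2169 CPM in the ONP at 7 days, and varied from 154 to 3414 CPM over all libraries. Per 1000 CPM of oligodendrocyte markers, Kcnk13 was at medians of 1.68 and 1.64 CPM in the ONH and 1.29 and 1.85 CPM in the ONP at 7 and 30 days, with overlap at each time. The part of other cells was not tested.

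Kcnk1, a weakly conducting K2P channel (TWIK1), differed by region and time. It was at 7.16, 12, 8.78 and 5.33 CPM in the ONH and 28.9, 28.3, 26.7 and 23.5 CPM in the ONP at 7 days. By 30 days the level was 9.22 to 23.3 CPM in the ONH (median 15.9) and 34.4 to 85.8 CPM in the ONP (median 52.3). No ONH library reached an ONP library of the same time, and no ONP library of 7 days reached one of 30 days. Log2 fold changes of ONH over ONP were -1.66 ± 0.28 (edgeR adjusted p = 0.00333) at 7 days and -1.70 ± 0.26 (adjusted p = 0.000113) at 30 days. In the ONP it rose by 1.0 ± 0.25 (adjusted p = 0.0181), a call lost without the ONP library of 7 days numbered 6 (adjusted p = 0.0573). Per 1000 CPM of astrocyte markers its medians were 0.393 and 0.829 CPM in the ONH and 1.44 and 2.01 CPM in the ONP at 7 and 30 days, and neither the regions at either time nor the times in the ONP overlapped. Scaled to 1000 CPM of oligodendrocyte markers, the regions overlapped, at 0.151 to 0.656 CPM in the ONH and 0.224 to 0.359 CPM in the ONP at 7 days, and 0.227 to 1.76 CPM and 0.419 to 3.42 CPM at 30 days, while the times in the ONP stayed apart. The part of oligodendrocyte RNA was not tested.

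Kcnk7, a K2P relative that is not known to conduct alone, rose in the ONP from 0, 0.255, 0.328 and 0.262 CPM at 7 days to 0.536 to 2.70 CPM at 30 days (median 1.45), with no overlap and 2.67 ± 0.70 on the log2 scale (edgeR adjusted p = 0.0226). That call was lost without the ONP library of 7 days numbered 2 or 6 (adjusted p = 0.0529 and 0.0586). At 30 days it was lower in the ONH (0.108 to 1.2 CPM, median 0.552), with -1.26 ± 0.48 (edgeR adjusted p = 0.0436), a call lost without any one of 10 of the 14 libraries (those of the ONH numbered 1, 2, 3, 4, 6 and 7 and of the ONP numbered 1, 2, 3 and 6, adjusted p from 0.0516 to 0.105) and in 4 other settings (adjusted p from 0.0585 to 0.122), among them the replicate number as a block (adjusted p = 0.0612). Kcnk10, a mechanosensitive K2P channel (TREK2), was lower in the ONH at 30 days, at 0.860 to 5.32 CPM (median 2.72) against 4.24 to 9.06 CPM (median 5.64), with -1.16 ± 0.37 (adjusted p = 0.019; in a single fit 0.082).

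Among calcium-activated channels, Kcnn2 (SK2, a small conductance channel) rose in the ONP and was lower in the ONH. It was at 0.431, 0.777, 0.456 and 0.168 CPM in the ONH and 5.82, 3.69, 7.92 and 6.86 CPM in the ONP at 7 days. At 30 days it was at 0.679 to 3.88 CPM in the ONH (median 1.52) and 7.11 to 34.1 CPM in the ONP (median 22.1). The regions were apart at both times, with log2 fold changes of ONH over ONP of -3.66 ± 0.58 (edgeR adjusted p = 0.00252) at 7 days and -3.34 ± 0.43 (adjusted p = 2.77e-05) at 30 days. In the ONP it rose by 1.73 ± 0.42 (adjusted p = 0.0164), a call lost without the ONP library of 7 days numbered 2 (adjusted p = 0.0505). Relative to 1000 CPM of precursor markers, the regions overlapped, at 0.328 to 2.33 CPM in the ONH and 2.31 to 5.20 CPM in the ONP at 7 days, and 1.62 to 10.1 CPM and 5.12 to 30.6 CPM at 30 days. In the ONH the difference was 2.10 (edgeR adjusted p = 0.215, DESeq2 adjusted p = 0.0256). The other SK genes Kcnn1 and Kcnn3 passed in no comparison. Kcnn1 was at means of 9.53 and 7.92 CPM in the ONH and 10.7 and 8.90 CPM in the ONP at 7 and 30 days.

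The BK channel has a pore, Kcnma1, and beta subunits, of which Kcnmb4 is the one best known from the nervous system. In the ONP these moved in opposite directions. Kcnma1 was at 6.93, 8.91, 6.11 and 14.3 CPM at 7 days and 3.14 to 7.60 CPM at 30 days (median 4.40), a fall of 0.95 ± 0.27 on the log2 scale with overlap (edgeR adjusted p = 0.0336), and the call was lost without any one of 7 of the 11 libraries (those numbered 1, 2, 3, 4 and 6 at 30 days and 2 and 6 at 7 days, adjusted p from 0.0543 to 0.162) and in 2 other settings (0.060 and 0.0933). Kcnmb4 was at 0.674, 0.954, 2.63 and 1.09 CPM at 7 days and 3.32 to 5.97 CPM at 30 days (median 4.06), a rise of 1.61 ± 0.38 with no overlap (edgeR adjusted p = 0.0144; in a single fit of all groups 0.112). In the ONH Kcnmb4 ranged from 0.841 to 11.6 CPM at 7 days and from 0.809 to 13.3 CPM at 30 days. Of its exon bases 20.8% are shared with an antisense gene.

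Kcne1l, a single-span subunit of the KCNE family that attaches to Kv7 and other pores, was at 12.7, 10.6, 12.3 and 6.15 CPM in the ONP at 7 days and 13.5 to 40.1 CPM at 30 days (median 26.8), with no overlap. It rose there by 1.38 ± 0.30 on the log2 scale (edgeR adjusted p = 0.00946), a call that held in each other setting over all libraries and without any one library. In the ONH it was at 14.5, 15.1, 12.4 and 12.7 CPM at 7 days and 16.8 to 25.1 CPM at 30 days (median 20.4), also with no overlap, at a log2 fold change of 0.56 (edgeR adjusted p = 0.217, DESeq2 adjusted p = 0.0289). The groups did not overlap for 2 of the 52 genes tested in the ONH, against 2.28% of all genes. The Kv1 beta genes, cytosolic partners of Kv1 pores, were called in no comparison, and their highest member, Kcnab1, was at means of 9.44 and 8.90 CPM in the ONH and 6.82 and 9.62 CPM in the ONP at 7 and 30 days. Kcnrg, a soluble regulator of Kv assembly, had group means of at most 0.381 CPM.

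Outside the Kcn genes, a list of 43 genes that anchor, assist or power potassium transport was examined the same way. At 30 days 34 were tested between regions, 3 higher in the ONH and 12 lower, where 41.8% of all genes were called and 20% were lower. At 7 days, of 34 tested, 3 were higher and 6 lower, where 13.2% of all genes were called and 6.81% were lower. In the ONP 4 rose and 6 fell of 34 between 7 and 30 days (17% of all genes called, 9.21% lower), and in the ONH 0 of 36 passed by edgeR. Of 8 genes of the complex that anchors Kv1 channels beside the node, 5 were lower in the ONH at 30 days and 4 at 7 days. Among them were Lgi3, a secreted ligand (684 ± 94 CPM in the ONP, SD, n = 4, against 196 ± 37 CPM in the ONH, n = 4, at 7 days), and the adhesion protein Cntn2 (420 ± 50 against 91.4 ± 44 CPM). In the ONP Lgi3 fell by 0.96 (edgeR adjusted p = 0.00135) and Adam22, a receptor of LGI proteins, by 0.67 (adjusted p = 0.00102). Lgi3 was also the 1 gene of the list whose 30 vs 7 day change differed between regions (-1.07, edgeR adjusted p = 0.0407). Cntnap2, which clusters Kv1 channels with Cntn2, went the other way, at 80.5 ± 22 CPM in the ONH and 2.91 ± 2.4 CPM in the ONP at 30 days (n = 7 each), a log2 fold change of 4.77. The same oligodendrocyte markers moved with these genes, and their part was not tested.

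Lrrc55, a gamma subunit of BK channels, rose in the ONP with Kcnmb4, from 0.47 ± 0.30 CPM at 7 days to 11.1 ± 5.9 CPM at 30 days, a log2 fold change of 4.58 (edgeR adjusted p = 0.00154), and was lower in the ONH at 30 days by 4.58 on the log2 scale. Dpp6, which assists Kv4 channels, was lower in the ONH at 30 days (-1.99), at 3.28 ± 1.8 against 13.0 ± 1.9 CPM. The sodium pump subunit Atp1b1 rose in the ONP (1.33, edgeR adjusted p = 0.00569). Slc12a2, a cotransporter that carries potassium into cells with sodium and chloride, fell in the ONP (-1.10, adjusted p = 0.00333).

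**Figure D5:**
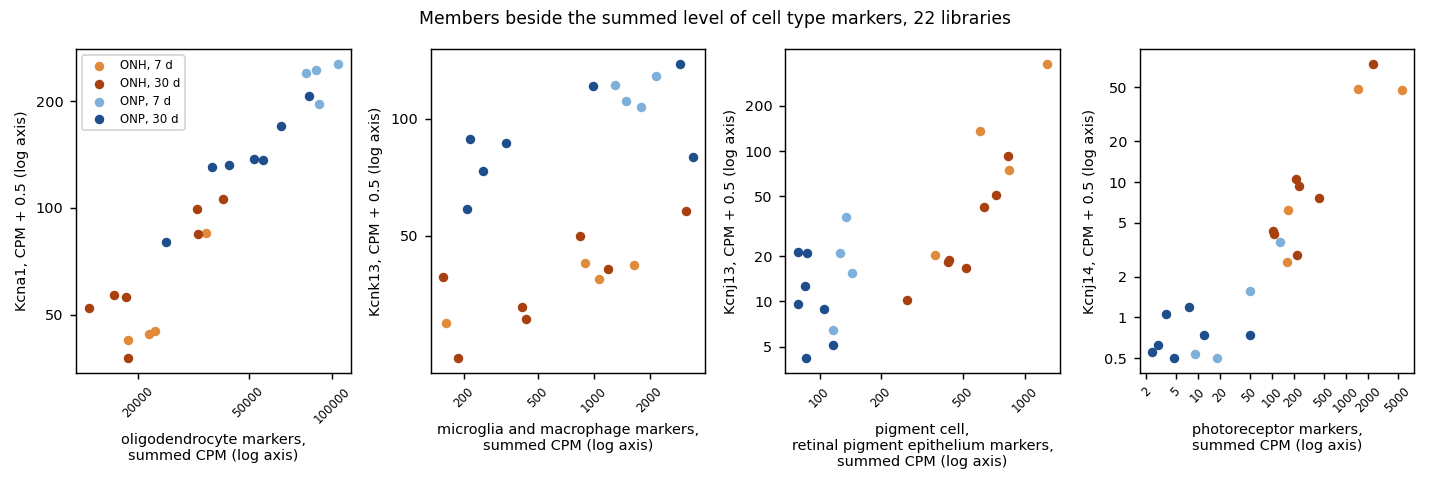
Level of Kcna1, Kcnk13, Kcnj13 and Kcnj14 (CPM plus 0.5, log axes) against the summed CPM of markers of oligodendrocytes, microglia and macrophages, pigment cells, and photoreceptors in 22 libraries. Libraries with more oligodendrocyte markers have more Kcna1, Kcnk13 is higher in the ONP at each time, the library highest in Kcnj13 is the highest in pigment cell markers, and the 3 libraries highest in Kcnj14 are the 3 highest in photoreceptor markers.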

How the data were processed

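Libraries were made from poly(A) RNA of immunoprecipitated ribosomes in 22 pools. The authors quantified reads with Salmon 0.14.2 on Ensembl transcripts of the mm10 build and aligned them with STAR 2.6.1d, as given in the submitters' processing notes and methods. They summed transcripts to genes and deposited the resulting expected counts unnormalized, with every value whole. A table of log2 variance-stabilized values that the authors deposited, made with DESeq2 1.34.0 in R 4.1.0, was not used here.

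Groups follow the region and day of the labels. In R 4.3.3 each pair of groups was fitted on its own libraries with edgeR 4.0.16 (filterByExpr by group, TMM, quasi-likelihood test), and the difference between regions in the 30 vs 7 day change was an interaction contrast over all 22 libraries. P-values were adjusted by Benjamini-Hochberg over all genes tested, with a threshold of 0.05 and no fold change cutoff. CPM used library totals multiplied by TMM factors over all 22 libraries, and limits from 3 counts cover counting error only. Gene positions and exon lengths came from GENCODE M21 (29322 of 29367 genes). The scripts were tested on simulated data.

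Alternatives were DESeq2 1.42.0, limma-voom 3.58.1 with weights for sample quality, RLE size factors, library size scaling, no filter beyond 1 count, a single fit of all groups, each library left out, and the replicate number as a block (at 7 days and between times over libraries of shared numbers). Named in full were the genes called in a comparison, up to 10 with the smallest p, and the highest gene per kilobase in each subfamily. Other genes are given in brief, and a few are counted and not reported here by name. The members and lists were chosen with earlier results of these data known. The 7 day columns carry numbers that do not match the sample titles, so they were mapped to their group only. The lowest chi-square per gene between 2 libraries of a group was 19.4, so no library was counted as a duplicate. Depth was 16292489 to 33307092 counts per library.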

Additional observations from a re-analysis of the deposited data

Results flagged for a closer look

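Over the named genes, 100 groups of values on a log2 scale of CPM plus 0.5 were examined for 1 library far from the others, and 7 had one. Chance flags about 1 in 20 groups under this criterion. In the ONH at 7 days, Kcna1 was at 84.3 CPM in the library numbered 6 against 41.8 to 44.3 CPM in the others, and that library also had the highest oligodendrocyte marker sum of its group (35188 CPM). In the ONH at 30 days, Kcna5 was at 8.28 CPM in the library numbered 3 (others 2.62 to 3.41), Kcnab1 at 3.26 CPM in that numbered 6 (others 8.15 to 14.4), and Kcns1 at 0.135 CPM in that numbered 1 (others 0.498 to 0.906). The ONH library of 30 days numbered 4 stood apart for Kcnj14 (73.7 CPM, others 2.38 to 10.1), and it had the highest photoreceptor marker sum of its group (2315 CPM, others at most 429). In the ONP, Kcnj5 was at 1.02 CPM in the library of 30 days numbered 5 (others 3.36 to 5.49) and Kcnrg at 0 CPM in that of 30 days numbered 6 (others 0.214 to 0.390).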

How the results depend on the processing

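Counts of called genes moved by over 1.5 times in the comparisons given next for DESeq2 and for the single fit. The ranges with a library left out are given after them, whether or not they moved that far. DESeq2 called 2 genes in the ONH between the times (edgeR 0), 17 between regions at 7 days (edgeR 10) and 4 for the difference between regions in the 30 vs 7 day change (edgeR 0). The single fit of all 4 groups called 1 in the ONH between the times, 7 in the ONP between the times (14 on its own libraries) and 18 between regions at 7 days. Leaving out each library in turn gave 0 to 0 in the ONH between the times, 7 to 17 in the ONP, 21 to 24 between regions at 30 days, 8 to 11 at 7 days, and 0 to 1 for the difference in change (1 without the ONH library of 7 days numbered 5). The causes were not tested. Of the called genes, 4 of 14 in the ONP between the times, 16 of 21 between regions at 30 days and 7 of 10 at 7 days stayed called under every setting over all libraries and without any one library.

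At 30 days, where both regions carry numbers 1 to 7, the replicate number as a block gave 23 called genes against 21. It lost Kcnk7 and added Kcnk5 (adjusted p = 0.0475), Kcnj2 (0.0228) and Kcnq3 (0.0135). Deviations of same-numbered libraries correlated at a median r of 0.206 (0.0767 to 0.471, 5 of 7 pairs over 0.1) against -0.0869 for other numbers, and 3 ONH libraries were closest to their own number. The methods say that both regions came from the same mice, and the labels do not say that numbers match. The 7 day columns carry numbers that do not match the titles, and mice differ between the times, so libraries of different times share only a number. Same-numbered libraries correlated at 0.0117 to 0.146 between regions at 7 days, and between times at -0.240 to 0.153 in the ONH and -0.132 to 0.0793 in the ONP. So few pairs cannot decide whether equal numbers of the 2 regions at 7 days mark the same mice. Over the libraries of shared numbers, the block called 9 genes between regions at 7 days (6 libraries, 7 without the block), 0 in the ONH between the times (8 libraries, 0 without the block) and 2 in the ONP (8 libraries, 7 without the block), and the 14 genes called in the ONP over all libraries had the same sign in both. In the ONP the block lost Kcns1 (adjusted p = 0.0805) and Kcne1l (0.0790), and Kcna5 was lost with and without it (0.122 and 0.0548). The fits without the block were added after seeing the data. These fits use fewer libraries and were left out of the counts of genes that stayed called.

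Genes under 0.184 CPM cannot be told from 0 at this depth, and 24 of the 85 genes were too low to test.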

Other observations

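Several low genes were called between regions by other settings and not by edgeR on the separate libraries, and the 5 named here did not pass its filter on low counts at 30 days. Kcnv2, a silent Kv subunit known from photoreceptors, was at 0.323 to 16.5 CPM in the ONH and 0 to 1.02 CPM in the ONP at 7 days, and at 0.0905 to 7.84 CPM in the ONH and 0 to 0.195 CPM in the ONP at 30 days. Its log2 fold change of ONH over ONP at 30 days was 6.18 with DESeq2 (adjusted p = 2.78e-07). Kcne2, a KCNE subunit known from choroid plexus epithelium, ranged from 0.399 to 3.14 CPM in ONH libraries of 7 days and had 0 counts in the 4 ONP libraries of that time. Kcnq1, a pore that can pair with it, was at up to 4.70 CPM in 1 ONH library at 30 days, with a group median of 0.345 CPM, and its log2 fold change at 30 days was 4.48 with DESeq2 (adjusted p = 0.00334). Kcnb2 and Kcnh8, both lower in the ONH at 30 days with DESeq2, were at medians of 0.692 and 0.673 CPM in the ONP and 0.0502 and 0.0431 CPM in the ONH. These genes were chosen after their values were seen. In 1 ONH library of 30 days, numbered 7, 3 pituitary markers summed to 220 CPM, and in that numbered 4 to 29.7 CPM, against at most 2.72 CPM in the ONP at 30 days.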
